A study of Drosophila melanogaster with 16 samples.

Results

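ROW and WOC are zinc-finger proteins of Drosophila chromatin, and the places where each was found in the genome of fly heads are compared here. The comparison takes in all 5302 ROW peaks and all 4896 WOC peaks, 10198 of the 23128 peaks in the series. Every peak of one list that overlapped a peak of the other by at least 1 bp was counted as shared, and every other peak as ROW-only or WOC-only. Chromatin immunoprecipitation with sequencing was done on whole heads of flies of 1 genotype, Actin-gal4/+ in a W1118 background, which the submitters call a control. The Actin promoter drives Gal4 in nearly all cells, no target transgene is named, and all groups share this genotype; age and sex are not given in the labels. ROW, WOC, HP1c and H3K4me3 had 3 libraries each and HP1b and IgG had 2. The replicates of each antibody had been combined into 1 peak list before deposit, and these lists give positions only for the 4 factors. The spread between replicates and the sequencing depth are therefore unknown. Intervals below are 95% and cover counting error only. The p-values treat peaks as separate units, although neighbouring peaks are not independent, and they do not measure variation between flies.

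As background, ROW and WOC are known to bind each other and to bring HP1c, a member of the heterochromatin protein 1 family that works largely in euchromatin, to the promoters of active genes. HP1b is a related family member found in both euchromatin and heterochromatin. H3K4me3, trimethylated lysine 4 of histone H3, marks the nucleosomes beside active transcription starts. Whole heads mix neurons, glia, photoreceptors, fat and muscle, so a list holds sites from any of these cells, and peaks of different factors at one place need not come from the same cell.

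Most sites of each factor were shared, and the unshared remainder was larger for ROW. Of the ROW peaks 3947 were shared and 1355 were ROW-only, which is 25.6% of that list. Of the WOC peaks 3988 were shared and 908 were WOC-only, or 18.5%. The shared sites were almost all single matches. There were 3859 pairs in which neither peak touched another peak of the other factor. Only 55 ROW peaks spanned more than 1 WOC peak, with 3 at most, and 17 WOC peaks spanned 2 ROW peaks.

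The split did not rest on marginal contacts. Each shared ROW peak was paired with the WOC peak it overlapped most, which gave 3947 pairs. These had a median of 421 bp in common (95% CI 413 to 428), and in 91.0% of pairs (90.1 to 91.9) the common stretch made up at least 90% of the shorter peak. In 5 pairs the overlap was under 50 bp, the smallest being 8 bp. On the other side of the threshold no ROW-only peak lay within 50 bp of a WOC peak, the nearest being 78 bp away, and 3 lay within 200 bp. For WOC-only peaks the nearest ROW peak was 141 bp away and 2 lay within 200 bp.

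Paired peaks had close centres, although the overlap that made a pair limits how far apart its centres can lie. The median distance between the ROW and WOC centres was 29 bp (27.5 to 30), the middle 50% of pairs lay between 12.5 and 58 bp, and 90% were within 115 bp. Centres were within 25 bp in 45.5% of pairs, within 100 bp in 87.5% and within 200 bp in 95.1%. Along the chromosome coordinate, which takes no account of the direction of a promoter, the offset had no side. The WOC centre stood at the higher coordinate in 1964 pairs and at the lower in 1962, and the median signed offset was 0 bp (-1.5 to 1). Offsets were small on every large arm, with medians of 26 bp on 3R, 26.75 bp on X, 27.5 bp on 2L, 29 bp on 3L and 29.25 bp on 2R. The heterochromatin contigs (sequence of the repeat-rich regions near centromeres and of the Y chromosome) had a median of 34 bp. Chromosome 4, a small chromosome largely packed as heterochromatin, stood higher at 51.5 bp (39.5 to 70), with 10% of its 174 pairs above 379.9 bp. Its paired ROW peaks were also wide, with a median of 603.5 bp. Across all arms the median offset was 62 bp for ROW peaks over 1000 bp (47.5 to 81) and 28 bp for those over 600 and up to 1000 bp (26 to 30.5). It was 26 bp for those over 300 and up to 600 bp, and 39.25 bp for those up to 300 bp (32.5 to 42.5). Whether width or chromosome accounts for the offset was not tested.

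**Figure D1:**
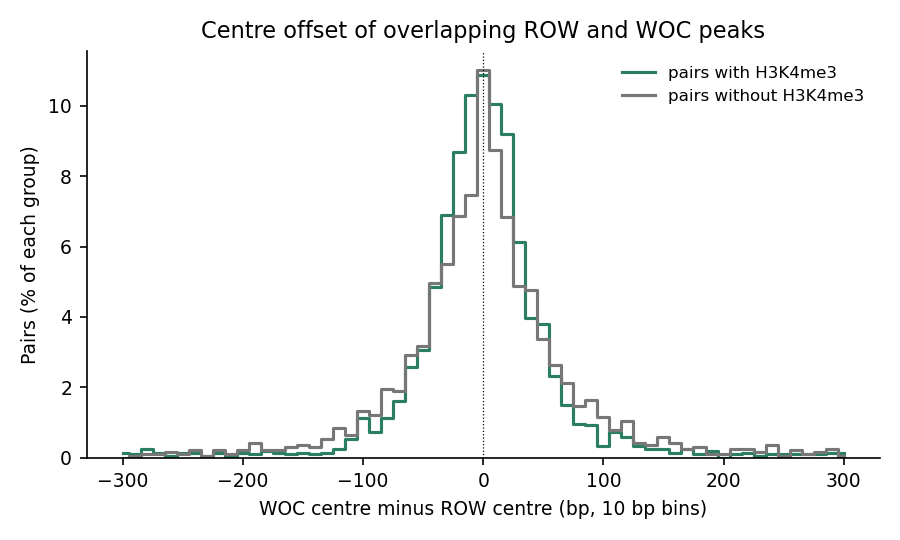
Distribution of the WOC centre minus the ROW centre in bp, in 10 bp bins, as a percent of pairs whose ROW peak overlapped H3K4me3 (2058) or did not (1889). Of 3947 pairs, 3857 fall in the plotted range. Both curves are centred on 0, and the pairs without the mark spread a little wider (median offset 33.5 against 26 bp).

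Among 1-to-1 pairs, the 3 with the largest centre offsets lay on 3R, 2LHet and 3L. Over all pairs the offset reached 1151.5 bp, on chromosome 4. These are distances between midpoints, which also part where 1 peak extends further than the other. On 3R the ROW peak at 13442389 to 13443448 (all coordinates dm3, 1-based) ended in a WOC peak at 13443259 to 13443602, with centres 512 bp apart and no H3K4me3 peak there. On 2LHet the ROW peak at 31683 to 33790 held a WOC peak at 32717 to 33768, 506 bp apart. On 3L, at 23117863 to 23119800 for ROW and 23118014 to 23120641 for WOC, the offset was 496 bp. All of these ROW peaks also overlapped HP1c and HP1b.

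Within a pair, the ROW peak was usually the wider of the 2, more often so where it overlapped H3K4me3. A pair counted as marked by its ROW peak alone, and a wider peak meets the mark more easily. Outside the mitochondrial genome, shared ROW peaks had a median width of 603.5 bp with the mark and 428 bp without it. The grouping is therefore not independent of ROW width. ROW held the whole WOC peak in 51.2% of pairs (49.6 to 52.8), WOC held the whole ROW peak in 13.6% (12.5 to 14.7), and in 35.2% each reached past the other on 1 side. ROW width minus WOC width had a median of 88 bp (83 to 92) over all 2058 pairs with H3K4me3. Over all 1889 pairs without the mark the median was 15 bp (9 to 22). The ROW peak was wider in 85.8% of pairs with the mark (84.2 to 87.3) and in 55.7% of pairs without it (53.4 to 57.9). The share was 70.4% to 77.0% on 2L, 2R, 3L, 3R and X, 59.8% on chromosome 4 (52.3 to 66.8) and 46.1% on the heterochromatin contigs (40.5 to 51.8). Peak width depends on depth and antibody as well as on binding, so the general excess of ROW width between lists is not a comparison of binding; the split by H3K4me3 was chosen after the first values had been seen and was not tested. The widths of partners moved together across 3946 pairs outside the mitochondrial genome, with a Spearman rho of 0.719, given as a description since both peaks cover the same site. Outside the mitochondrial genome, and ranked by the sum of both widths, the widest pair was found on chromosome 4, its ROW peak spanning 1217066 to 1222679 (5614 bp). The next was on the same chromosome at 149550 to 154413 for ROW (4864 bp) and 149651 to 154263 for WOC (4613 bp). After it came a pair on 3RHet, at 1807983 to 1811722 (3740 bp) and 1808019 to 1810975 (2957 bp).

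ROW lay slightly nearer the promoter mark than WOC did. Among 2324 pairs with both centres within 1 kb of an H3K4me3 summit, ROW was nearer in 1349, WOC in 964 and 11 were equal. ROW was thus nearer in 58.3% of the unequal pairs (56.3 to 60.3; exact binomial test against 50%, two-sided, p = 1.22e-15). The shift was small: the median distances were 380 bp for ROW (373 to 385) and 382.5 bp for WOC (377.5 to 387.5), and the median difference within a pair was 7 bp. On the side facing the summit the ROW peak reached a median of 45 bp past the WOC edge (42 to 47), and on the far side 32 bp (29 to 34), counted over 2344 pairs with their midpoint within 1 kb.

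Unshared peaks were narrower in both lists. Shared ROW peaks had a median width of 522 bp (514 to 531) and ROW-only peaks 316 bp (311 to 323). Shared WOC peaks had a median of 463 bp (455 to 471) and WOC-only peaks 308 bp (301 to 318). The unshared classes of the 2 factors were alike in width, with the middle 50% between 271 and 376.5 bp for ROW-only and between 269 and 376 bp for WOC-only peaks. Peaks narrower than 300 bp made up 41.3% of ROW-only and 45.8% of WOC-only peaks, against 9.12% of shared ROW and 12.8% of shared WOC peaks. Over 1000 bp there were 325 shared ROW, 218 shared WOC, 6 ROW-only and 0 of 908 WOC-only peaks, which allows a share of up to 0.330% by the limit of 3 counts (upper Wilson limit 0.421%). When each list was cut into 4 width groups of about equal size, 42.4% of ROW peaks were shared in the narrowest group, 236 to 331 bp, and 96.8% in the widest, from 635 bp. For WOC these shares were 58.8% and 96.6%. A narrow peak meets another less easily, so width was described and not tested.

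Some unshared peaks were not narrow. The widest ROW-only peak lay on chromosome 4 at 319480 to 320921, was 1442 bp long, overlapped HP1c and HP1b, and had its nearest WOC peak 2693 bp away. On 3R a ROW-only peak of 1279 bp at 2953649 to 2954927 overlapped H3K4me3 (fold enrichment 4.98 in the authors' values) and neither HP1 protein. The widest WOC-only peak, of 887 bp on chromosome 4 at 247361 to 248247, overlapped both HP1 proteins and lay 421 bp from ROW. The next, of 884 bp on 2R at 937810 to 938693, overlapped none of the other lists and was 34856 bp from the nearest ROW peak.

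Unshared peaks lay kilobases from the other factor. The median gap from a ROW-only peak to the nearest WOC peak was 4947 bp (4465 to 5598), with 3.69% within 500 bp, 12.4% within 1 kb and 50.3% within 5 kb. From a WOC-only peak to the nearest ROW peak the median was 7006.5 bp (6255 to 7947), with 2.53%, 8.37% and 40.9% within those distances. The most isolated were a ROW-only peak on X at 12083201 to 12083480, 157284 bp from any WOC peak, and a WOC-only peak on 3R at 22202724 to 22202973, 158657 bp from any ROW peak; neither overlapped H3K4me3, HP1c or HP1b.

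**Figure D2:**
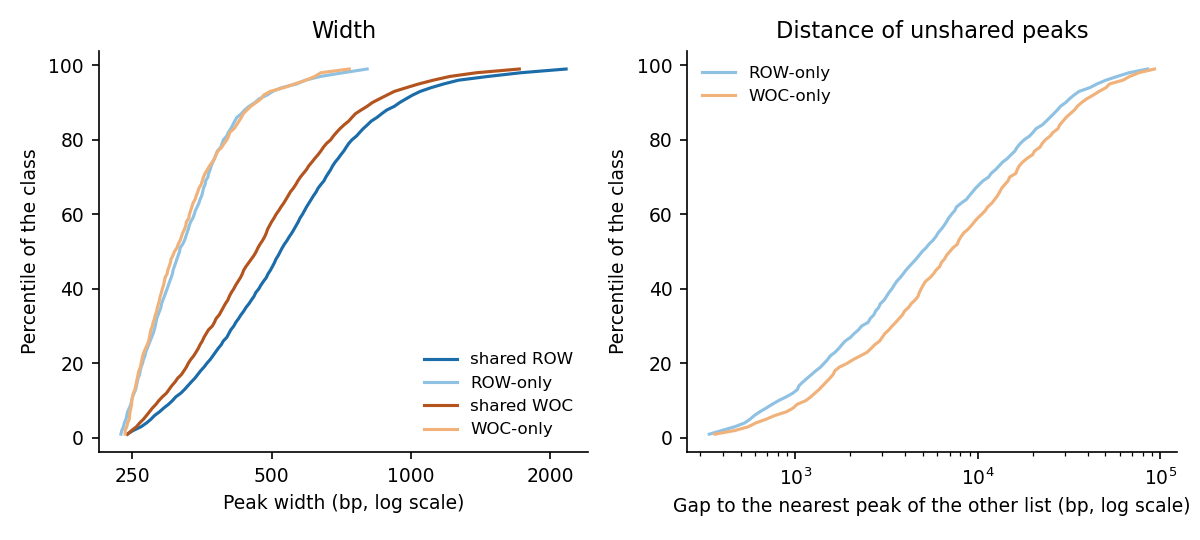
Left, peak width in bp (log axis) at percentiles 1 to 99 of shared ROW, ROW-only, shared WOC and WOC-only peaks. Right, gap in bp (log axis) from ROW-only and WOC-only peaks to the nearest peak of the other factor. The unshared classes are alike in width and narrower than the shared ones, and the WOC-only curve lies to the right of the ROW-only curve (medians 7006.5 and 4947 bp).

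Over all arms pooled, spacing within a list separated the WOC classes more than the ROW classes. Shared and ROW-only peaks had their next ROW peak at medians of 4306.5 bp (4146.5 to 4550.5) and 4364 bp (4010.5 to 4978.5), measured between centres. Shared WOC peaks had the next WOC peak at 4912.5 bp (4659.5 to 5094) and WOC-only peaks at 6618.75 bp (5891.5 to 7338). WOC-only medians were the larger on 2L, 2R, 3L, 3R and the heterochromatin contigs. They were not on X (5927 against 5979.75 bp) or chromosome 4 (2054.25 against 2081.5 bp). ROW-only medians were above shared ROW medians on 3L (5532.25 against 4467.5 bp) and below them on X (4699 against 5511.5 bp). Differences by arm were not tested. The neighbour of a shared ROW peak was itself shared in 75.7% of cases and that of a ROW-only peak in 70.8%, against 74.4% of the list. For WOC the shares were 85.1% and 76.1%, against 81.5%. The densest 20 kb windows held 8 shared ROW peaks each, on 2R at 2543798 to 2563797, with 6 H3K4me3 peaks, on 2RHet at 74148 to 94147, with 1, and on 3R at 27888058 to 27908057, with 6.

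The H3K4me3 state set the classes apart, and WOC-only peaks were the least marked. Of shared ROW peaks 52.1% (50.6 to 53.7) overlapped an H3K4me3 peak and of ROW-only peaks 30.1% (27.7 to 32.6), against 46.5% of all ROW peaks. The odds ratio was 2.53 (2.22 to 2.88; Fisher's exact test, two-sided, adjusted p = 1.82e-45 over 9 tests). Of shared WOC peaks 49.6% (48.0 to 51.1) were marked and of WOC-only peaks 10.2% (8.43 to 12.4), against 42.3% of all WOC peaks, an odds ratio of 8.62 (6.89 to 10.8; Fisher's exact test, adjusted p = 1.51e-118). The unshared classes, which have no site in common, differed from each other as well: ROW-only peaks were marked more often than WOC-only peaks, with an odds ratio of 3.78 (2.96 to 4.82; Fisher's exact test, adjusted p = 6.62e-31).

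The difference between shared and ROW-only peaks was present in wide peaks and was not seen in narrow ones. In the narrowest group of ROW peaks 16.5% of shared (13.7 to 19.8) and 21.6% of ROW-only peaks (18.9 to 24.7) were marked. In the next group, 332 to 449 bp, the shares were 36.5% (33.3 to 39.7) and 41.7% (37.2 to 46.4). The intervals overlapped in both groups, and a reversal was not tested. In the group from 450 to 634 bp the order was the other way, 61.1% (58.4 to 63.8) and 45.7% (36.5 to 55.2), and in the widest 70.05% and 26.2%, the last from 42 ROW-only peaks. Among peaks above the median width the odds ratio was 2.86 (2.03 to 4.01, exact test, two-sided, adjusted p = 2.08e-09). Among the narrower ones it was 0.987 (0.834 to 1.17, the same exact test, adjusted p = 0.897). Pooled over 10 width groups, a step added after these values had been seen, the Mantel-Haenszel odds ratio was 0.956 (0.816 to 1.12, exact conditional test, two-sided, adjusted p = 0.594). This is an average over groups of unlike difference. With the centre of the ROW peak inside the H3K4me3 peak as the criterion, shared and ROW-only peaks stood at 15.9% (14.8 to 17.0) and 17.0% (15.1 to 19.1). The difference between shared and WOC-only peaks had the same direction in each of the 4 width groups, with 27.8%, 42.8%, 56.5% and 61.8% of shared peaks marked from narrow to wide and 11.02%, 8.53%, 13.9% and 2.44% of WOC-only peaks.

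**Figure D3:**
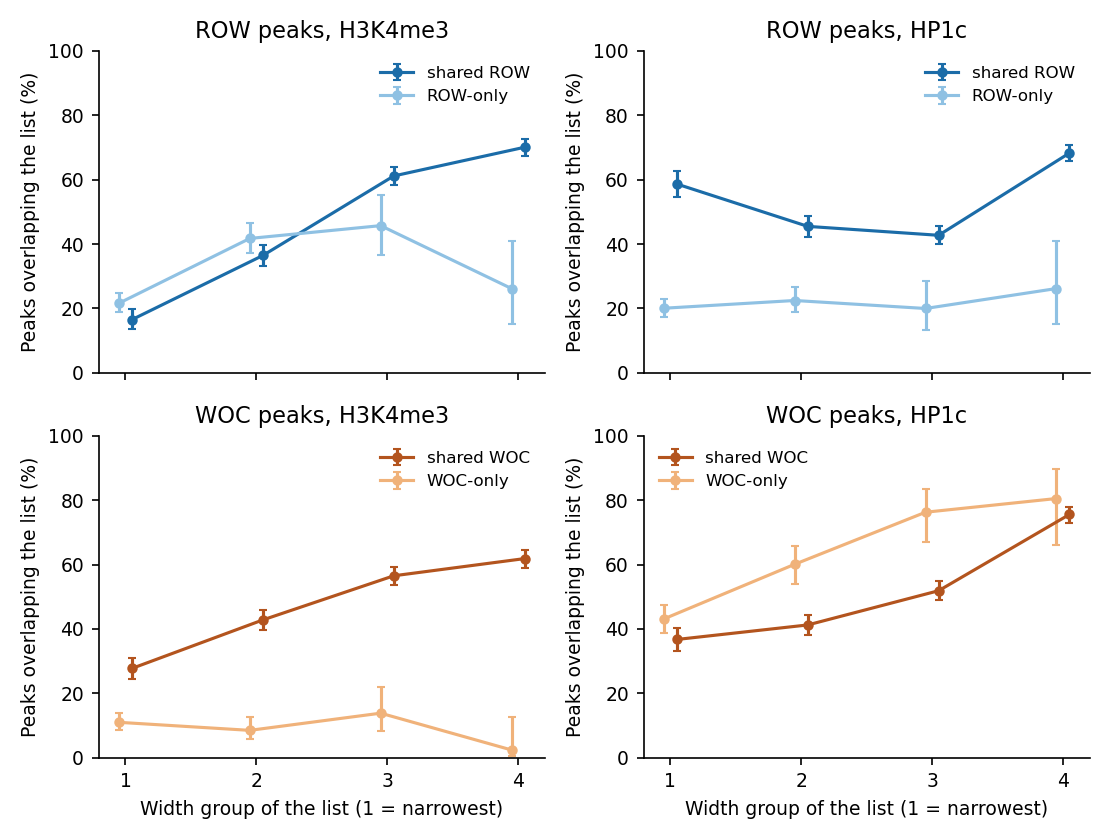
Percent of peaks overlapping H3K4me3 (left) or HP1c (right) in the 4 width groups of the ROW list (top) and the WOC list (bottom), for shared and unshared peaks; bars are 95% Wilson intervals. For H3K4me3 the shared and ROW-only lines cross (16.5% and 21.6% in the narrowest group, 70.05% and 26.2% in the widest), with overlapping intervals in the narrower groups. WOC-only peaks stay below shared peaks for H3K4me3 and above them for HP1c in all 4 groups. For HP1c the intervals overlap in the narrowest and the widest group.

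The H3K4me3 peaks met by ROW-only peaks were close in strength to those met by shared peaks, and those met by WOC-only peaks were less often strong. The fold enrichment is in the authors' values. Where several H3K4me3 peaks were overlapped the highest was taken, which can raise the value of a class that touches several. The median was 4.34 for shared ROW (4.28 to 4.39), 4.22 for ROW-only (4.10 to 4.34), 4.36 for shared WOC (4.31 to 4.41) and 3.93 for WOC-only peaks (3.56 to 4.49). The H3K4me3 list had a median of 3.72 without the contigs U and Uextra and of 3.57 as a whole. That overall median was exceeded at 76.4% of marked shared ROW peaks (74.6 to 78.2), 74.5% of ROW-only (70.1 to 78.5), 77.2% of shared WOC (75.3 to 79.0) and 60.2% of WOC-only peaks (50.1 to 69.6). These shares were not tested. Among marked peaks, 21.0% of shared ROW peaks (19.3 to 22.9) and 18.8% of shared WOC peaks touched 2 or more H3K4me3 peaks. Of ROW-only peaks 3 of 408 did, and of WOC-only peaks 2 of 93. Marked shared ROW peaks had a median width of 603.5 bp and marked ROW-only peaks 349.5 bp; the share was not compared at equal width. The centre lay inside the H3K4me3 peak for 56.4% of marked ROW-only peaks (51.5 to 61.1), 35.5% of marked WOC-only peaks (26.5 to 45.6), 30.4% of marked shared ROW peaks (28.5 to 32.4) and 29.1% of marked shared WOC peaks (27.2 to 31.2). A narrower peak that touches the mark has its centre closer to it, and these shares were not compared at equal width either. Over all peaks, marked or not, they were 17.0% for ROW-only and 15.9% for shared ROW peaks. For WOC-only and shared WOC peaks they were 3.63% and 14.4%. The median distance to the nearest H3K4me3 summit was 591.5 bp for shared ROW (558.5 to 625.5), 592.5 bp for shared WOC, 1710.5 bp for ROW-only (1497.5 to 2124) and 12063.8 bp for WOC-only peaks (10321.5 to 14733).

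The unshared peaks with the highest H3K4me3 fold enrichment lay at varied distances from the other factor. The 3 such ROW-only peaks were all on 3L and overlapped neither HP1 protein. The first, at 19902420 to 19902682 (fold enrichment 7.75), lay 4142 bp from a WOC peak, and the next, at 3194109 to 3194367 (7.72), 1051 bp. The last, at 3471959 to 3472420 (7.59), lay 285 bp away. The WOC-only peak on 2R at 1491269 to 1491693 had the highest H3K4me3 fold enrichment of its class, 7.59, overlapped HP1c, and lay 311 bp from a ROW peak. On 3R a WOC-only peak at 5168338 to 5168619 (7.31) overlapped neither HP1 protein and was 715 bp from ROW. The WOC-only peak on 2L at 10290920 to 10291174 (7.21) overlapped both HP1 proteins and lay 1007 bp from ROW.

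The HP1 proteins divided the unshared classes in the opposite direction from H3K4me3. HP1c overlapped 53.9% of shared ROW peaks (52.4 to 55.5) and 21.0% of ROW-only peaks (18.9 to 23.3), against 45.5% of all ROW peaks (odds ratio 4.39, 3.80 to 5.08; Fisher's exact test, two-sided, adjusted p = 2.05e-102). HP1b overlapped 34.1% and 9.59%, against 27.8% of all ROW peaks (4.87, 4.01 to 5.90; Fisher's exact test, adjusted p = 5.33e-77). WOC-only peaks had HP1 shares close to those of their list: HP1c overlapped 53.3% of them (50.1 to 56.5) and 53.6% of shared WOC peaks, against 53.5% of all WOC peaks. The odds ratio was 1.01 (0.875 to 1.17; Fisher's exact test, adjusted p = 0.883). HP1b overlapped 36.2% of WOC-only peaks (33.2 to 39.4) and 33.8% of shared WOC peaks, against 34.3% of all WOC peaks (0.899, 0.773 to 1.04; exact test, adjusted p = 0.184). Compared directly, ROW-only peaks met HP1c and HP1b less often than WOC-only peaks, with odds ratios of 0.233 (0.194 to 0.281; two-sided exact test, adjusted p = 2.83e-56) and 0.187 (0.149 to 0.234, adjusted p = 5.14e-53).

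At equal width, over all arms pooled, WOC-only peaks carried the HP1 proteins more often than shared WOC peaks did. From the narrowest to the widest group HP1c overlapped 43.1%, 60.1%, 76.2% and 80.5% of WOC-only peaks and 36.7%, 41.2%, 51.9% and 75.5% of shared WOC peaks. The intervals overlapped in the narrowest and the widest group. Pooled over 10 width groups, the Mantel-Haenszel odds ratio of shared over WOC-only was 0.556 for HP1c (0.472 to 0.655; exact conditional test, adjusted p = 1.49e-12) and 0.503 for HP1b (0.423 to 0.598, adjusted p = 6.24e-15). This step, too, was added after the first values had been seen. With all widths pooled, the order for HP1c varied by arm. WOC-only peaks stood above shared WOC peaks on 2L (60.0% against 55.0%) and 3R (58.0% against 46.6%). The shares were 31.8% against 30.9% on X, 49.2% against 51.7% on 2R and 49.4% against 54.7% on 3L. Pooled over arms, the Mantel-Haenszel odds ratio for HP1c was 1.12 (0.968 to 1.31, exact conditional test, adjusted p = 0.136). For both HP1 proteins the order was the other way on chromosome 4 and the heterochromatin contigs. On chromosome 4 HP1c overlapped 18 of 36 WOC-only peaks against 89.2% of shared WOC peaks (84.0 to 92.9), and HP1b 33.3% against 78.0%. On the contigs HP1c stood at 65.6% (57.8 to 72.6) against 86.4% (82.0 to 89.8). The contrast between ROW and WOC had the same direction on either side of the H3K4me3 split, which was not tested. Without the mark, HP1c overlapped 26.2% of ROW-only peaks (23.5 to 29.1) and 57.4% of WOC-only peaks (54.0 to 60.8). With it, HP1c overlapped 9.07% of 408 (6.65 to 12.25) and 17.2% of 93 (10.9 to 26.1), and these intervals overlapped. Nearly 50% of ROW-only peaks, 668 of 1355 or 49.3% (46.6 to 52.0), overlapped none of H3K4me3, HP1c and HP1b, against 31.1% of WOC-only (28.1 to 34.1), 14.9% of shared ROW and 17.0% of shared WOC peaks. ROW-only peaks were also narrower than shared ROW peaks (medians 316 and 522 bp), and a narrow peak meets another list less easily. This share was not compared at equal width. Absence from these lists shows only that no peak was called.

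**Figure D4:**
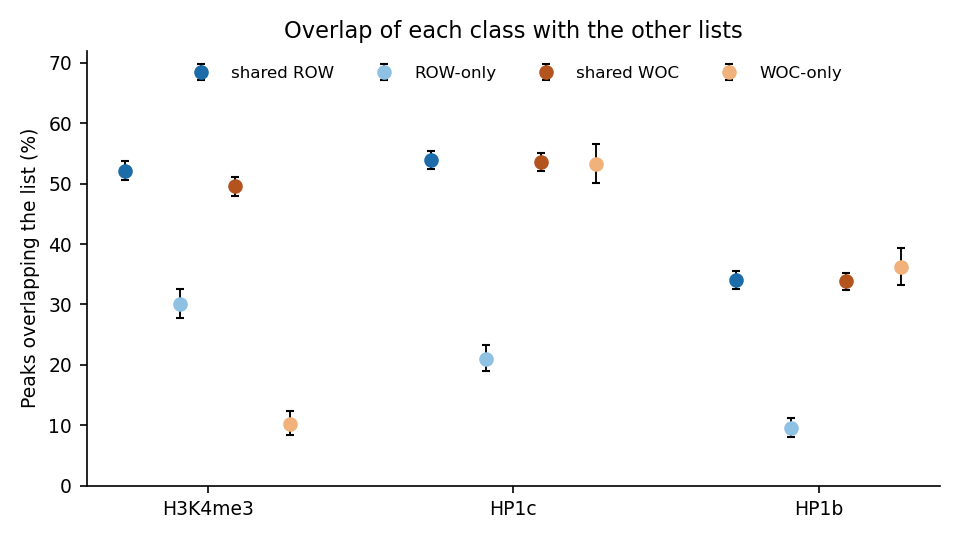
Percent of shared ROW, ROW-only, shared WOC and WOC-only peaks that overlap an H3K4me3, HP1c or HP1b peak by at least 1 bp, with 95% Wilson intervals. WOC-only peaks are lowest for H3K4me3 (10.2%) and level with shared peaks for HP1c (53.3%), while ROW-only peaks are lowest for HP1c (21.0%) and HP1b (9.59%).

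By chromosome arm the classes differed mainly in heterochromatin, and in opposite ways. The heterochromatin contigs held 7.52% of shared ROW peaks (6.74 to 8.39) and 4.13% of ROW-only peaks (3.20 to 5.33), an odds ratio of 1.89 (1.41 to 2.53; Fisher's exact test, two-sided, adjusted p = 6.18e-05 over 14 tests). They held 7.55% of shared WOC peaks and 17.0% of WOC-only peaks (14.7 to 19.5), an odds ratio of 0.400 (0.324 to 0.493; exact test, adjusted p = 3.63e-15). The other 12 tests did not pass. The nearest were chromosome 4 (4.41% of shared ROW and 3.03% of ROW-only peaks; 1.48, 1.05 to 2.09), X (12.8% and 15.3%; 0.812, 0.681 to 0.967) and, for WOC, 2R (17.2% and 13.9%; 1.29, 1.05 to 1.58), each at adjusted p = 0.0711 in Fisher's exact test. Set directly against each other, ROW-only peaks were rarer on the heterochromatin contigs than WOC-only peaks, 56 of 1355 against 154 of 908 (odds ratio 0.211, 0.153 to 0.290; Fisher's exact test, adjusted p = 1.21e-23 over 7 tests added after the first values had been seen). On the other 6 arms the shares of the unshared classes did not pass, with X the nearest (1.31, 1.02 to 1.68; exact test, adjusted p = 0.125). Of the 154 WOC-only peaks in heterochromatin, 101 overlapped HP1c, 77 HP1b and 1 H3K4me3, so that HP1c stood at 65.6% and H3K4me3 at 0.649%. Of 301 shared WOC peaks there 260 overlapped HP1c (86.4%), 212 HP1b (70.4%) and 54 H3K4me3 (17.9%), a higher share for each, which was not tested.

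The H3K4me3 state of unshared peaks differed between X and the large autosomal arms. On 2L, 2R, 3L and 3R together 32.9% of 1051 ROW-only and 10.5% of 608 WOC-only peaks were marked, an odds ratio of 4.17 (3.12 to 5.57). On X 24.6% of 207 ROW-only (19.3 to 30.9) and 21.8% of 110 WOC-only peaks (15.1 to 30.4) were marked, an odds ratio of 1.17 (0.675 to 2.03). The odds ratios differed (Zelen's exact test, two-sided, adjusted p = 0.000166 over 3 tests, chosen after the values by arm had been seen). For shared against ROW-only peaks they were 2.85 on X (1.98 to 4.09) and 2.73 on the autosomal arms (2.35 to 3.16; the same exact test, adjusted p = 0.921). HP1c overlapped 7.25% of ROW-only and 31.8% of WOC-only peaks on X, so the HP1c contrast between the unshared classes had the same direction there as on 2L (17.8% and 60.0%), 2R (21.0% and 49.2%), 3L (22.4% and 49.4%) and 3R (21.1% and 58.0%). On chromosome 4 it did not: 24 of 41 ROW-only peaks (58.5%, 43.4 to 72.2) and 18 of 36 WOC-only peaks overlapped HP1c.

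**Figure D5:**
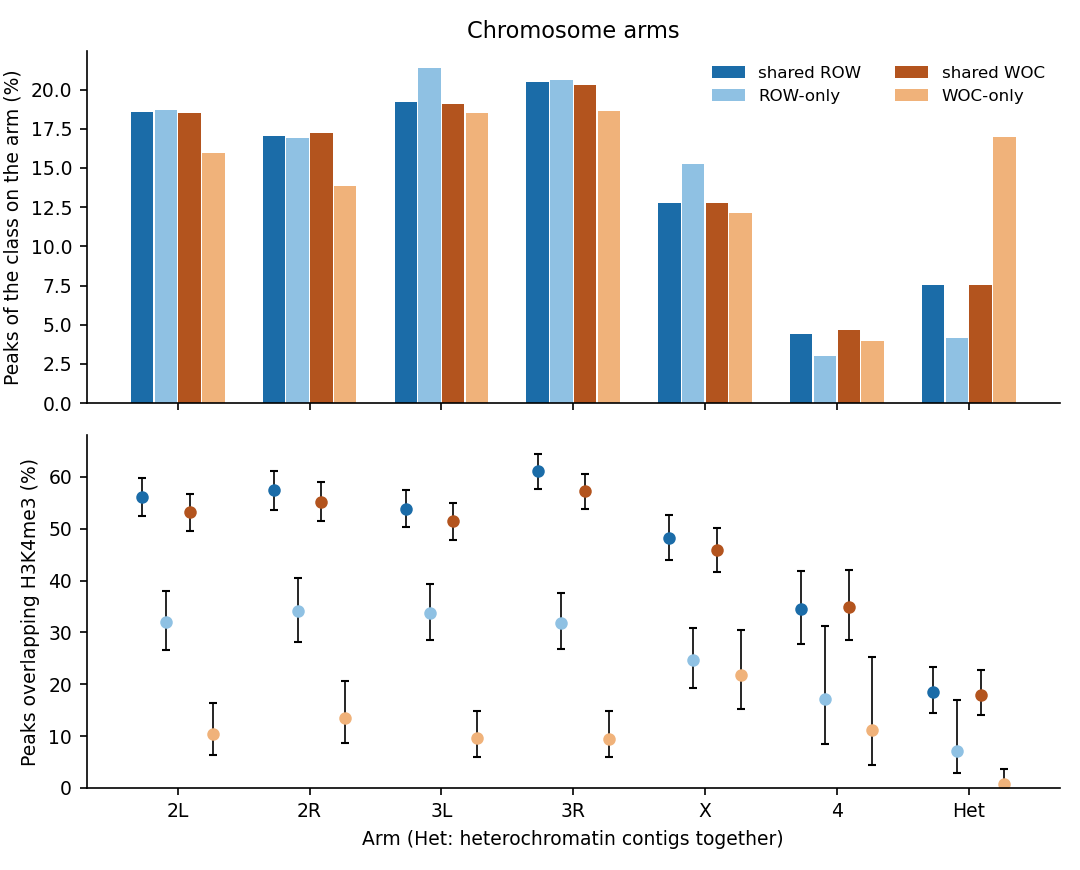
Top, percent of each class that lies on each arm, with the heterochromatin contigs pooled (Het). Bottom, percent of the peaks of each class on an arm that overlap H3K4me3, with 95% Wilson intervals. Het holds 17.0% of WOC-only and 4.13% of ROW-only peaks, and on X the ROW-only (24.6%) and WOC-only (21.8%) intervals overlap, as they also do on chromosome 4 and Het.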

How the data were processed

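Peaks were analysed for ROW and WOC (3 libraries each), with H3K4me3, HP1c and HP1b as further lists. The submitters' processing notes name dm3, Bowtie2, SAMtools, MACS2 and deepTools; settings, for this work, were not known. A single list per antibody, with replicates combined, was what the authors deposited. Factor lists give only start and end of peaks. The deposited H3K4me3 list adds the fold enrichment (a ratio) and the -log10 of the q-value, which is at least 3.02; its peak names point to MACS2 against IgG. Depth is unknown. A ROW or WOC list from a shallower library would hold fewer peaks and more of the other list would appear unshared.

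Overlap meant 1 bp or more. Centres are midpoints, gaps run between edges, spacing between centres. Shares carry Wilson intervals, medians exact order-statistic intervals, odds ratios Woolf intervals. Fisher's exact tests were adjusted by Benjamini-Hochberg over 9 (further lists) and 14 (arms) tests; adjusted p under 0.05 was the threshold. Named regions followed a rule: widest, most isolated, highest H3K4me3 fold, largest offset, densest 20 kb window, 3 each, of which examples are printed. Classes, lists and tests were chosen with earlier results of these data known. The gene table at hand is of a later release than dm3, so genes and sequences were not used. Functions were checked on made-up intervals. Alternatives covered the overlap rule, width, arms and the H3K4me3 criterion. Software comprised SciPy 1.17.1, statsmodels 0.14.6, matplotlib 3.10.9, pandas 2.3.3 and NumPy 2.4.6 under Python 3.11.15.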

Additional observations from a re-analysis of the deposited data

Results flagged for a closer look

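The H3K4me3 state of WOC-only peaks stood apart on X, where the contrast with other classes was smaller than on 2L, 2R, 3L and 3R. For shared against WOC-only peaks the odds ratio of H3K4me3 overlap was 3.04 on X (95% CI 1.87 to 4.93) and 10.1 on the autosomal arms (7.72 to 13.2; Zelen's exact test of equal odds ratios, two-sided, adjusted p = 0.000166 over 3 tests). For ROW-only against WOC-only peaks it was 1.17 on X and 4.17 on the autosomal arms (the same exact test, adjusted p = 0.000166). X holds 24 marked WOC-only peaks of 110 and the 4 autosomal arms 64 of 608. The arms were chosen after their values had been seen, and the cause was not tested.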

How the results depend on the processing

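No paired analysis was possible because the lists hold no value for any single replicate; leaving out a replicate was not run either. H3K4me3 overlap kept its direction and call in all 13 alternatives for shared against WOC-only peaks (odds ratios 4.48 to 12.3) and for ROW-only against WOC-only (2.03 to 5.68), as did HP1c and HP1b in all 8 each for shared against ROW-only (2.83 to 5.39) and ROW-only against WOC-only (0.0785 to 0.306). ROW stayed nearer the summit in 56.2% to 60.1% of pairs over 5 alternatives.

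H3K4me3 for shared against ROW-only kept its call in 10 alternatives (2.04 to 3.49) and turned, uncalled, in peaks up to the median width (0.987), with the centre inside the mark (0.922) and over 10 width groups (0.956). HP1c for shared against WOC-only turned with 0.5 of the shorter peak (0.991), centres within 200 bp (0.906) and without chromosome 4, heterochromatin and mitochondria (0.924), all uncalled, and turned with a call in peaks up to the median width (0.679), above it (0.518) and over 10 width groups (0.556). HP1b became called with centres within 200 bp (0.818), without chromosome 4 and heterochromatin (0.786), in the narrower (0.641) and wider peaks (0.491) and over 10 width groups (0.503), and turned, uncalled, over arms (1.02). The HP1 comparison of shared with WOC-only peaks therefore depends on the overlap rule, on width and on which chromosomes are kept.

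With centres within 200 bp the shared share was 70.8% of ROW and 76.6% of WOC, the median offset 27 bp, and the median widths 328 bp (ROW-only) and 329 bp (WOC-only). Without chromosome 4, heterochromatin and mitochondria 83.0% of WOC was shared and shared WOC spacing was 5134.25 bp. The offset was 26 bp with H3K4me3 and 33.5 bp without.

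Of 7 arms, 1 was called for each factor. For ROW this became 3 with a gap of 500 bp, 0 above the median width and 0 over the 6 main arms, which leave out the called heterochromatin contigs. For WOC it became 2 with 0.5 of the shorter peak, 4 with centres within 200 bp and 0 over the main arms. Directions turned in 10 ROW values, all uncalled: with centres within 200 bp on 2L (1.04), 2R (0.952), 3R (1.09) and 4 (0.796), over the main arms on 2L (1.04) and 3R (1.04), in narrower peaks on 2R (0.941), and in wider peaks on 2R (0.879), 3L (1.01) and 3R (1.48). They turned in 6 WOC values: on 4 with centres within 200 bp (0.523, the 1 called) and in narrower peaks (0.828), on X in wider peaks (0.655), and over the main arms on 3L (0.906), 3R (0.973) and X (0.936). The cause was not tested. Unknown depth limits every statement on unshared peaks.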
